A study of Mus musculus with 2 samples.

Results

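RNA captured by its poly(A) tail was sequenced from early mouse embryos (C57BL/6 background) that had been injected with an siRNA. The siDnmt1 library was made from 20 pooled embryos that had received siRNA against Dnmt1, the DNA methyltransferase that maintains CpG methylation through replication. The scrambled library was made from another 20 pooled embryos that had received siRNA of scrambled sequence. All were taken between 4 and 8 cells, and the number of cells in each pool is not known. The genes described here are those of the translation initiation factors. They were taken as every row whose symbol starts with Eif and a digit, leaving out 5 rows, namely the Argonaute genes listed as Eif2c1 to Eif2c4 and the Y-linked Eif2s3y. That gave 54 of the 23418 rows.

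Translation initiation factors bring the small ribosomal subunit, the initiator tRNA and the capped end of an mRNA together, and then let the large subunit join at the start codon. Their supply and their phosphorylation set how many proteins a cell makes, and the best known controls are phosphorylation of the alpha subunit of eIF2 and sequestration of the cap-binding protein eIF4E. In the oocyte and early embryo many stored maternal mRNAs are held silent and are translated in turn, so that control of initiation and of poly(A) tails matters at these stages.

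The libraries held 12236615 counts (siDnmt1) and 11675483 counts (scrambled), of which the ribosomal RNA precursor Rn45s took 37.3% in siDnmt1 and 29.9% in scrambled. The targeted gene, Dnmt1, had 687 counts in siDnmt1 and 847 in scrambled, 1.23-fold lower with a 95% counting interval of 1.11 to 1.37. This decrease did not set Dnmt1 apart, since 38.3% of all genes compared fell by as much or more between the libraries. The embryo markers were present, with Pou5f1 at 1489 counts in siDnmt1 and 2152 in scrambled, and all 6 markers of cumulus and granulosa cells had 0 counts in both libraries. Of 5 blood cell markers, 4 had 0 counts in both libraries and Ptprc had 16 in siDnmt1 and 6 in scrambled. Of the 7 embryo markers that averaged at least 20 counts, 3 were at least 2-fold lower in siDnmt1, beside 16.7% of all genes compared. These 3 were Dppa3, Zp3 and Tfap2c, and with the trend of log2 ratio with transcript length removed they were within 2-fold, at log2 ratios of -0.19 for Dppa3, -0.62 for Zp3 and -0.96 for Tfap2c. With 1 library in each group there is no replicate check and no p-value, and each difference below describes this pair of libraries. Fewer cells and less RNA per cell cannot be told apart in such bulk values. Intervals are exact 95% intervals of the ratio of 2 counts, and they cover counting error only.

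The initiation factor genes lay on both sides of equality, and most were within 2-fold. Of the 54 genes, 47 averaged at least 20 counts across the libraries and were compared on the scale of log2((siDnmt1 + 5)/(scrambled + 5)). Their median log2 ratio was -0.055, against -0.025 over all 7315 genes compared, and it was 0.040 when the libraries were scaled to equal totals without Rn45s. On this scale 2 were at least 2-fold higher in siDnmt1, Eif2a and Eif4g2, which is 4.26% of the 47, beside 12.5% of all genes compared. Another 6 were at least 2-fold lower, Eif1, Eif1ad, Eif2d, Eif3h, Eif4e1b and Eif6, which is 12.8%, beside 16.7% of all genes compared. Of these, Eif1 and Eif4e1b passed the limit of 20 only through the scrambled library, so their place here follows in part from that filter. With the libraries scaled to equal totals without Rn45s, 3 were higher and 4 lower by as much, beside 14.4% and 14.9% of all genes. With the trend of log2 ratio with transcript length removed, 1 was higher and 2 were lower, beside 12.9% and 14% of all genes. The other 39 lay within 2-fold, with log2 ratios above 0 in 22 of the 47 and below 0 in 25, and 6 genes changed side under another setting. Eif1a and Eif3l did so when the libraries were scaled to equal totals over all rows, Eif2s2 and Eif4a1 at equal totals without Rn45s, Eif4a1 at a median log2 ratio of 0, and Eif2b2, Eif3g and Eif4a1 with the length trend removed. The middle 50% of the 47 log2 ratios spanned 0.90, and that of all genes compared spanned 1.24. For 11 of the 47 the counting interval included equality.

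**Figure D1:**
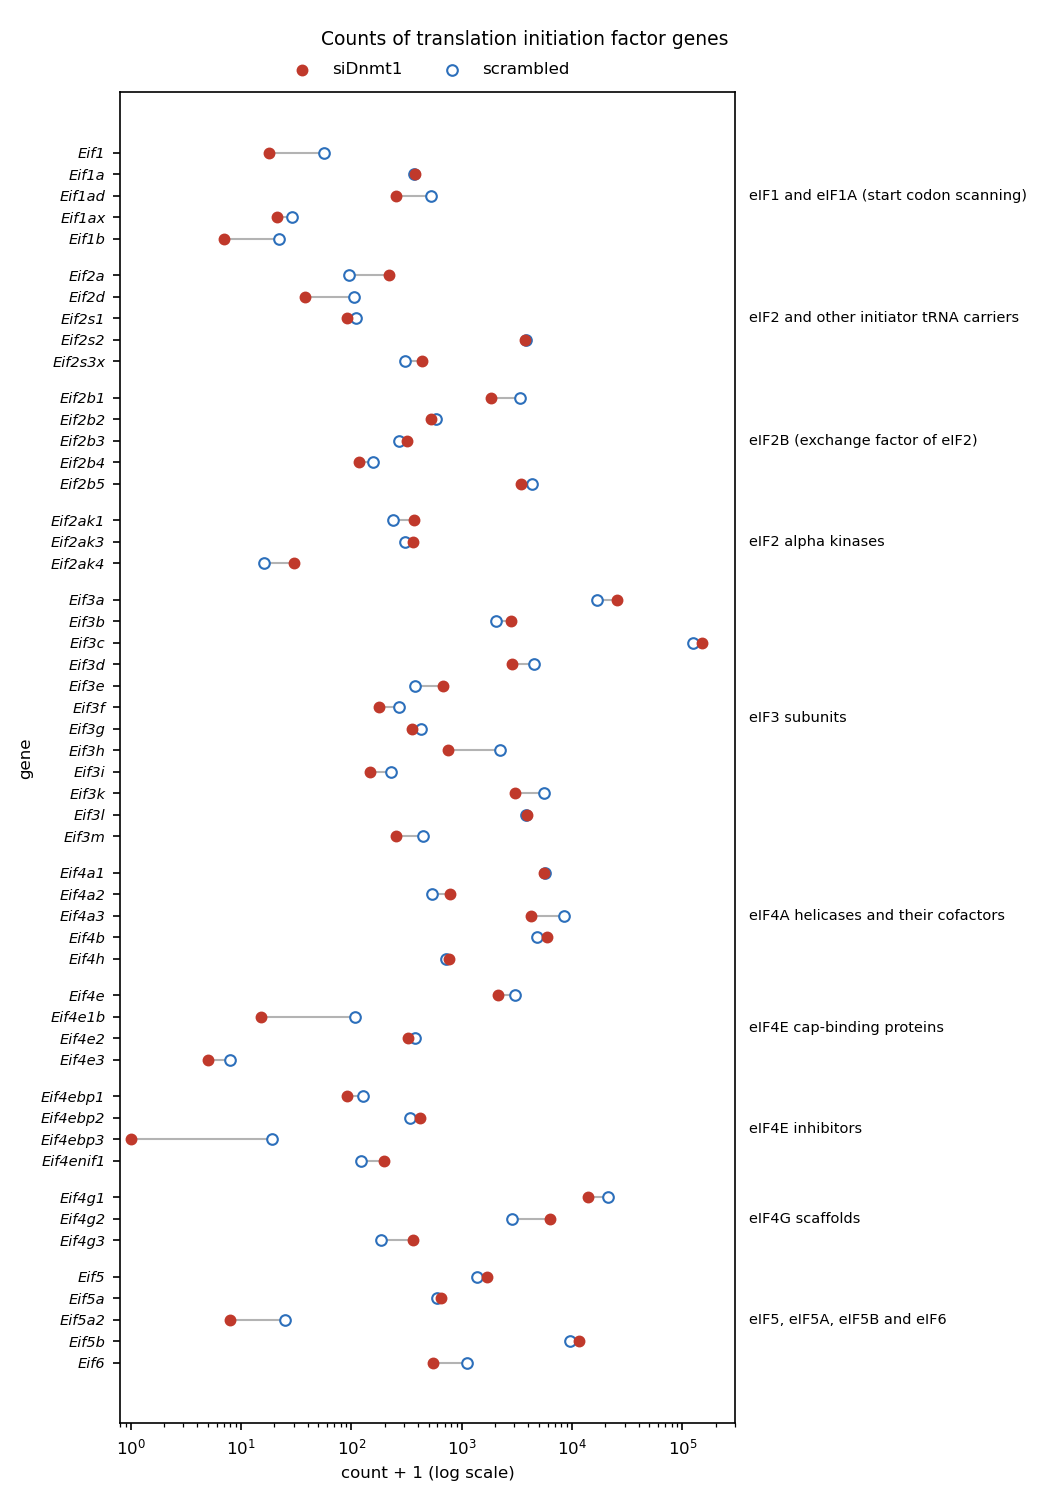
Counts plus 1 (log scale) of the initiation factor genes with a count in at least 1 library, grouped by factor, with a filled point for the siDnmt1 library and an open point for the scrambled library. Eif3c stands to the right of all other genes at 150575 counts in siDnmt1 and 124020 in scrambled, and the widest gap among genes averaging at least 20 counts is that of Eif4e1b, at 14 counts in siDnmt1 and 106 in scrambled.

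**Figure D2:**
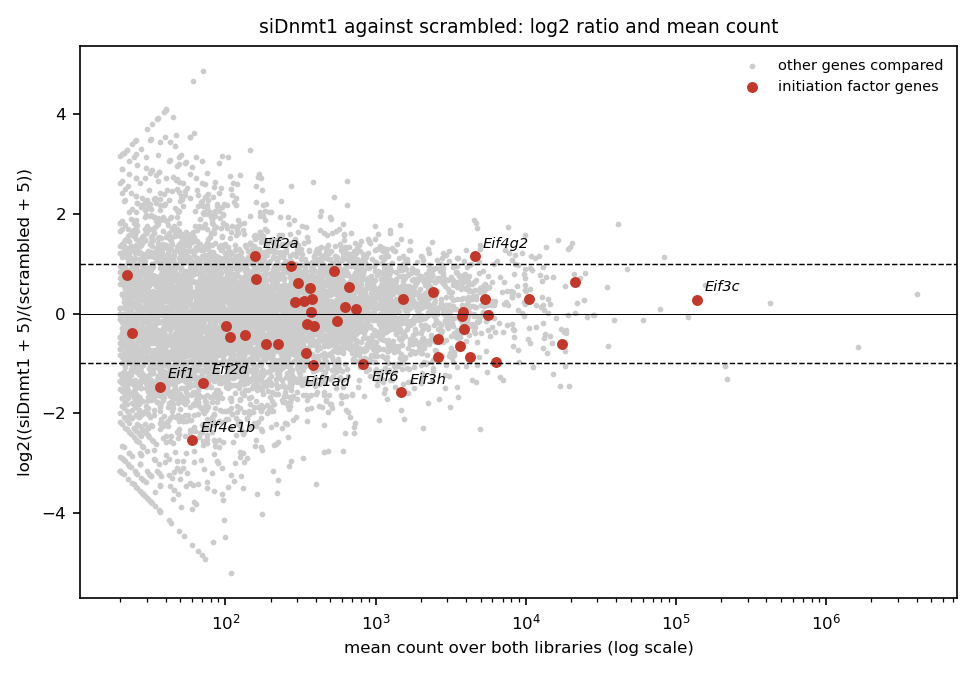
Log2 ratio of siDnmt1 over scrambled, with 5 added to each count, against the mean count over both libraries (log scale), for all 7315 genes compared in grey and the 47 initiation factor genes in red. Dashed lines mark 2-fold, and the 8 initiation factor genes beyond them are named together with Eif3c.

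The genes listed under eIF1 and eIF1A were level or lower in siDnmt1. The eIF1 and eIF1A proteins hold the small subunit in an open, scanning state and help it to reject wrong start codons. Eif1 had 17 counts in siDnmt1 and 56 in scrambled, 3.29-fold lower (1.89 to 6.05). It passed the limit of a mean of 20 only through the scrambled library. Its close paralog Eif1b had only 6 counts in siDnmt1 and 21 in scrambled and was not compared. Eif1ad, named for the eIF1A domain it encodes, had 251 counts in siDnmt1 and 520 in scrambled, 2.07-fold lower (1.78 to 2.42). The 2 genes for eIF1A differed less, with 375 counts in siDnmt1 and 367 in scrambled for Eif1a and 20 in siDnmt1 and 28 in scrambled for the X-linked Eif1ax, and equality lay inside both intervals. The Eif1 transcript is short at 1322 nt. Its log2 ratio of -1.47 was -0.70 once the trend of log2 ratio with transcript length over all genes was removed. For Eif1ad (2556 nt) the values were -1.04 and -0.92, so that neither gene remained past 2-fold. Of the 50-base stretches of the Eif1 transcript, 31.6% also occur in transcripts of other annotated genes, and Banf1, which overlaps Eif1ad on the other strand, shares 15.1% of those of Eif1ad, so both counts are uncertain.

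Upstream sequence is shown for the genes at least 2-fold apart that have a single window in the RefSeq promoter table (GRCm38.p6), because the enzyme targeted here methylates CpG sites. The capitals mark every CpG. The 250 bases before the start of Eif1 (chr11:100319699-100319948, plus strand) held 24 CpG, and those of Eif1ad (chr19:5366563-5366812, plus strand) held 28.
Eif1: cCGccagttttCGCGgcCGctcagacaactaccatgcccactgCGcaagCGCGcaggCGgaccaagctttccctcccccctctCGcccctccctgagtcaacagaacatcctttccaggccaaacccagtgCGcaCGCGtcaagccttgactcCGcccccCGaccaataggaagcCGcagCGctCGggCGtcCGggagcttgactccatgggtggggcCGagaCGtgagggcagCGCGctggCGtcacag
Eif1ad: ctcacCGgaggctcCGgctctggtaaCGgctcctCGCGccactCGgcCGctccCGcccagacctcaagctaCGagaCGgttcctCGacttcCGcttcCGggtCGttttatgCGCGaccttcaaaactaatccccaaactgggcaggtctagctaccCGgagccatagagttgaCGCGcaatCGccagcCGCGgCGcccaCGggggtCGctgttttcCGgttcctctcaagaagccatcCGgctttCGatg
At least as many CpG were found in 12% of the 32851 windows of the table for a count of 24 and in 7.6% for a count of 28. Windows of the genes compared held more than all windows, with a median of 17 against 6 and an upper quartile of 24. These numbers describe the sequence, and methylation was not analysed here.

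Delivery of the initiator tRNA was represented by genes that differed in both directions. The eIF2 complex carries this tRNA to the ribosome. Eif2s1, which encodes the alpha subunit that stress kinases phosphorylate, had 91 counts in siDnmt1 and 110 in scrambled, and Eif2s2, for the beta subunit, had 3704 in siDnmt1 and 3847 in scrambled. Both intervals included equality. Eif2s3x, the X-linked gene of the gamma subunit, which binds GTP and the tRNA, had 433 counts in siDnmt1 and 302 in scrambled, 1.43-fold higher (1.24 to 1.67). Processed pseudogenes share 36.2% of the 50-base stretches of its transcript, so its counts are uncertain.

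Outside this complex, the 2 single-chain factors that can bring a tRNA to the small subunit stood on opposite sides. Eif2a, which encodes a factor that acts without GTP and is linked to unusual start codons, had 218 counts in siDnmt1 and 95 in scrambled, 2.29-fold higher (1.80 to 2.95). Eif2d, whose product works in ribosome recycling and reinitiation, had 37 counts in siDnmt1 and 105 in scrambled, 2.84-fold lower (1.93 to 4.25). Their transcripts are of like length (3432 and 3465 nt), and the log2 ratios after removal of the length trend stayed at 1.18 for Eif2a and -1.37 for Eif2d, against 1.16 and -1.39 before. Exons of Eif2a overlap those of Serp1 on the other strand, and exons of Eif2d those of Rassf5. Whether reads were counted by strand is not given in the sources used here, so reads of such partners may be mixed.

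The windows upstream of this pair are shown because the genes differed in opposite directions. Both lie on the plus strand, that of Eif2a at chr3:58525571-58525820 with 30 CpG and that of Eif2d at chr1:131152957-131153206 with 16.
Eif2a: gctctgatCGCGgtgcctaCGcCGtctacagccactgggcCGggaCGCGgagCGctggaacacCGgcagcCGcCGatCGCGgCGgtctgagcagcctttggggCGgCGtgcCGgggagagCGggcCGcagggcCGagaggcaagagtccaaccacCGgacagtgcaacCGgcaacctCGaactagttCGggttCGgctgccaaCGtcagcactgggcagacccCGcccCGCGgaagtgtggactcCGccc
Eif2d: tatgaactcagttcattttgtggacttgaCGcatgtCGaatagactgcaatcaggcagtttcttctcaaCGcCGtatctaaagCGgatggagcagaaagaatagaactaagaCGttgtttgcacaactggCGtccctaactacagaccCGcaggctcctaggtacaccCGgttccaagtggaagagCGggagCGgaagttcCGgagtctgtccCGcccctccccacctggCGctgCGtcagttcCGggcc
At least 30 CpG were found in 5.9% of all windows and at least 16 in 25.4%. None of these 4 windows held TATAAA on either strand, a motif present in 6.0% of the windows of genes compared and in 12.4% of all windows. CCAAT on either strand was in that of Eif1 alone, and in 35.7% of the windows of genes compared and 33.8% of all windows. Over the 55 windows listed for 42 of the initiation factor genes the number of CpG ranged over 7 to 43 with a median of 19, beside a median of 17 over the 7163 windows of genes compared and 6 over all windows. At least 1 CpG was present in 92.1% of all windows. The motifs TATAAA and CCAAT contain no CpG. A match or its absence describes these letters alone.

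The exchange factor eIF2B reloads eIF2 with GTP and is the step that phosphorylated eIF2 blocks. None of its 5 genes was 2-fold apart, beside 29.1% of all genes compared. Eif2b1, for the alpha subunit, had 1842 counts in siDnmt1 and 3398 in scrambled, 1.84-fold lower (1.74 to 1.95). Eif2b5, for the catalytic epsilon subunit, had 3448 counts in siDnmt1 and 4302 in scrambled, 1.25-fold lower (1.19 to 1.30). The other regulatory subunits, beta and delta, were represented by Eif2b2 with 529 counts in siDnmt1 and 584 in scrambled and by Eif2b4 with 115 in siDnmt1 and 156 in scrambled. Eif2b3, for the gamma subunit, had 316 counts in siDnmt1 and 269 in scrambled. Equality lay inside the intervals of Eif2b2 and Eif2b3. Per kb of transcript the 2 most abundant were Eif2b5, at 1350 counts in siDnmt1 and 1684 in scrambled, and Eif2b1, at 915 in siDnmt1 and 1688 in scrambled, while Eif2b4 was lowest at 56.8 in siDnmt1 and 77.0 in scrambled.

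All 3 measured kinases of eIF2 alpha had higher counts in siDnmt1, while 49.2% of all genes compared had a log2 ratio of at least 0. None of the 3 was higher by 2-fold on the log2 scale, beside 12.5% of all genes compared. Eif2ak1, the kinase that senses haem shortage, had 367 counts in siDnmt1 and 238 in scrambled, 1.54-fold higher (1.31 to 1.82). Eif2ak3, which encodes the endoplasmic reticulum stress kinase PERK, had 364 in siDnmt1 and 303 in scrambled, higher by a factor of 1.201 (1.03 to 1.40). Eif2ak4, for GCN2, the sensor of amino acid shortage, had 29 counts in siDnmt1 and 15 in scrambled, a ratio of 1.93 whose interval of 1.003 to 3.88 reached down almost to equality. Eif2ak4 passed the limit of a mean of 20 only through the siDnmt1 library. Their transcripts are long, with a median of 4513 nt. With the length trend removed the log2 ratios were 0.52 for Eif2ak1, 0.15 for Eif2ak3 and 0.63 for Eif2ak4, against 0.61, 0.26 and 0.77 before. Exons of Eif2ak1 overlap those of Aimp2 and Ankrd61 on the other strand, and exons of Eif2ak3 those of Gm43292. Other genes share 12.1% of the 50-base stretches of Eif2ak1 and 7.64% of those of Eif2ak3. Eif2ak2, for the double-stranded RNA sensor PKR, had 0 counts in both libraries, which allows a share of up to 2.45e-05% in siDnmt1 and 2.57e-05% in scrambled.

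The eIF3 complex is the scaffold that binds the small subunit and keeps it ready for mRNA. Of its 12 genes compared, 5 were higher and 7 lower in siDnmt1, though Eif3l changed side with the libraries scaled to equal totals over all rows and Eif3g with the length trend removed. Their median log2 ratio was -0.43, and -0.11 with that trend removed. Eif3h was the only one at least 2-fold apart, beside 29.1% of all genes compared. Eif3h had 744 counts in siDnmt1 and 2226 in scrambled, 2.99-fold lower (2.75 to 3.25). Its transcript has 1295 nt, and its log2 ratio was -1.57 before and -0.78 after removal of the length trend. Processed pseudogenes share 26.2% of its 50-base stretches, so its counts are uncertain as well.

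Among the subunits that form the structural core together with Eif3h, the RNA-binding subunit gene Eif3a had 25763 counts in siDnmt1 and 16688 in scrambled, 1.54-fold higher (1.51 to 1.57). Eif3e had 681 counts in siDnmt1 and 375 in scrambled, 1.82-fold higher (1.60 to 2.06), the highest ratio of the complex. On the other side Eif3k had 3014 counts in siDnmt1 and 5548 in scrambled, 1.84-fold lower (1.76 to 1.92). Eif3m had 251 counts in siDnmt1 and 441 in scrambled and Eif3f 176 in siDnmt1 and 270 in scrambled, 1.76-fold and 1.53-fold lower. Eif3l was level, at 3897 counts in siDnmt1 and 3799 in scrambled. Core subunits were found on both sides of equality.

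The peripheral subunits were divided as well. Eif3b, which anchors the mobile module of the complex, had 2776 counts in siDnmt1 and 2052 in scrambled, 1.35-fold higher (1.28 to 1.43). Its partners in that module had fewer counts in siDnmt1, with Eif3i at 147 in siDnmt1 and 226 in scrambled and Eif3g at 354 in siDnmt1 and 425 in scrambled. For Eif3g (1101 nt) the direction turned with the length trend removed, at a log2 ratio of 0.70 after and -0.26 before. Eif3d, a subunit with a cap-binding activity of its own, had 2847 counts in siDnmt1 and 4481 in scrambled, 1.57-fold lower (1.501 to 1.65). An annotated antisense gene shares 42.1% of the 50-base stretches of Eif3d. Eif3j1 and Eif3j2, the genes of the loosely bound j subunit, had 0 counts in both libraries, and 90.8% of the stretches of Eif3j2 occur in Eif3j1.

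The eIF3 proteins assemble in fixed proportions, but the counts per kb of their longest annotated transcripts were far from equal. Eif3c had 44509 counts per kb in siDnmt1 and 36660 in scrambled. It was the 5th most abundant row of the whole siDnmt1 library and the 7th of the scrambled library, with 1.96% of counts other than Rn45s in siDnmt1 and 1.51% in scrambled. Eif3a came next among the subunits at 5027 counts per kb in siDnmt1 and 3256 in scrambled, so that Eif3c exceeded it 8.85-fold in siDnmt1 and 11.3-fold in scrambled. The 11 subunits compared other than Eif3c had a median of 574 counts per kb in siDnmt1 and 697 in scrambled, down to 63.3 in siDnmt1 for Eif3i and 91.0 in scrambled for Eif3e. Between the libraries Eif3c itself differed by 1.21-fold (1.205 to 1.223), higher in siDnmt1. A processed pseudogene shares 7.65% of its stretches, and its exons overlap no other annotated gene.

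**Figure D3:**
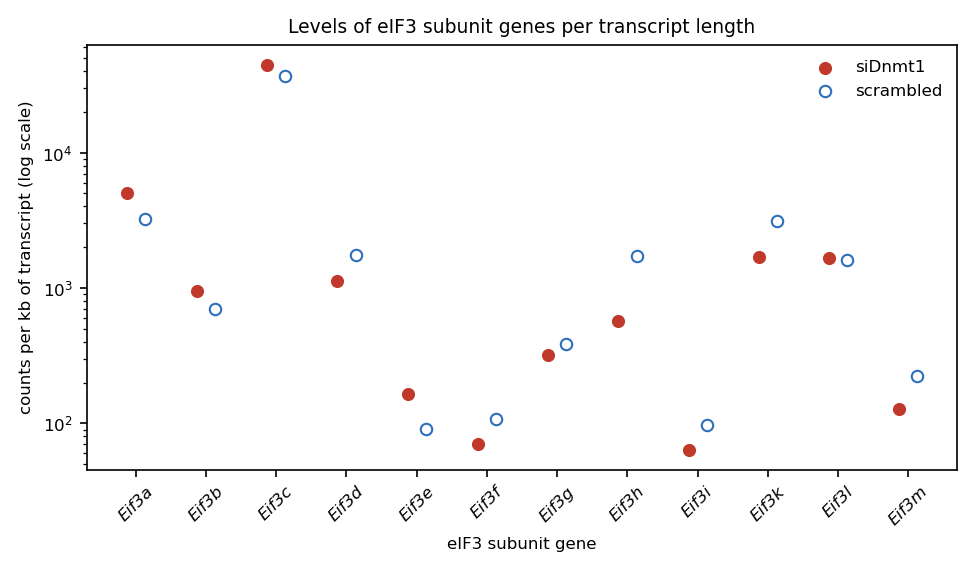
Counts per kb of the longest annotated transcript (log scale) for the 12 eIF3 subunit genes compared, with a filled point for siDnmt1 left of an open point for scrambled. Eif3c lies at 44509 in siDnmt1 and 36660 in scrambled, while the other subunits lie between 63.3 and 5027.

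The widest gap among the 47 genes was in recognition of the capped end. Eif4e1b, which encodes a form of the cap-binding protein known mainly from oocytes and early embryos, had 14 counts in siDnmt1 and 106 in scrambled, 7.57-fold lower (4.32 to 14.3). Its log2 ratio was -2.55, and -2.31 after removal of the length trend (2131 nt). Eif4e1b passed the limit of a mean of 20 only through the scrambled library. Its place among the lower genes, and as the widest gap, follows in part from that filter. Eif4e, the general cap-binding protein gene, had 2145 counts in siDnmt1 and 3063 in scrambled, 1.43-fold lower (1.35 to 1.51). Eif4e2, for a cap-binding protein that mostly represses translation, had 324 counts in siDnmt1 and 374 in scrambled, with equality inside the interval, and Eif4e3 had 4 in siDnmt1 and 7 in scrambled. Per kb Eif4e was far above Eif4e1b in both libraries, at 430 counts in siDnmt1 and 614 in scrambled against 6.57 in siDnmt1 and 49.7 in scrambled for Eif4e1b.

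The proteins that hold eIF4E back were encoded by genes within 2-fold where they could be compared. None of the 3 compared was 2-fold apart, beside 29.1% of all genes compared. Eif4ebp2 had 414 counts in siDnmt1 and 338 in scrambled, 1.22-fold higher (1.06 to 1.42), and Eif4ebp1 had 90 in siDnmt1 and 126 in scrambled, 1.40-fold lower (1.06 to 1.86). Both encode small inhibitors that mTORC1 releases from eIF4E by phosphorylation. The third, Eif4ebp3, had 0 counts in siDnmt1 and 18 in scrambled, 6-fold lower with the siDnmt1 library taken at a floor of 3 counts, while the counting interval reached down to 4.40-fold, and its mean was too low for the comparison. An overlapping protein-coding gene shares 65.5% of its stretches. Eif4enif1, whose product 4E-T takes eIF4E into storage granules, had 198 counts in siDnmt1 and 120 in scrambled, 1.65-fold higher (1.31 to 2.09).

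The scaffolds of the cap complex were unequal. Eif4g2, which encodes DAP5, a scaffold without an eIF4E-binding site, had 6300 counts in siDnmt1 and 2821 in scrambled, 2.23-fold higher (2.14 to 2.33). Eif4g3 had 363 counts in siDnmt1 and 186 in scrambled, 1.95-fold higher (1.63 to 2.34). Eif4g1, the main scaffold, had 13818 counts in siDnmt1 and 21055 in scrambled, 1.52-fold lower (1.49 to 1.56). It remained the most abundant of the 3 per kb, at 2451 counts in siDnmt1 and 3734 in scrambled, ahead of Eif4g2 at 788 in siDnmt1 and 353 in scrambled and of Eif4g3 at 44.6 in siDnmt1 and 22.9 in scrambled. The longest annotated transcripts of Eif4g2 and Eif4g3 exceed those of the other members (7995 and 8134 nt). After removal of the trend for these lengths their log2 ratios were 0.96 and 0.75, against 1.16 and 0.95 before. Eif4g1 stood at -0.61 before and -0.75 after.

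The RNA helicases of this step differed by member. Eif4a1, the main helicase gene, was level at 5567 counts in siDnmt1 and 5645 in scrambled, although 33.3% of its stretches occur in other genes, most of them pseudogenes. Eif4a2 had 786 counts in siDnmt1 and 539 in scrambled, 1.46-fold higher (1.30 to 1.63). Eif4a3, which belongs to the exon junction complex rather than to the cap complex, had 4270 counts in siDnmt1 and 8439 in scrambled, 1.98-fold lower (1.90 to 2.05). That gene lay just inside the 2-fold limit at a log2 ratio of -0.98 and passed it, at -1.05, when the libraries were scaled to equal totals over all rows, while it was -0.89 at equal totals without Rn45s and -0.38 with the length trend removed (1509 nt). Eif4b and Eif4h encode cofactors that stimulate the helicase. Eif4b had 5858 counts in siDnmt1 and 4800 in scrambled, 1.22-fold higher (1.18 to 1.27), and Eif4h had 765 in siDnmt1 and 717 in scrambled, with equality inside the interval.

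Among the 4 genes compared of the last steps, only Eif6 was at least 2-fold apart, beside 29.1% of all genes compared. Eif6, whose product keeps the large subunit from joining too early and acts in its maturation, had 544 counts in siDnmt1 and 1110 in scrambled, 2.04-fold lower (1.84 to 2.26). For this transcript of 1500 nt the log2 ratio was -1.02, and -0.41 after removal of the length trend. Eif5b, for the GTPase that joins the subunits, had 11614 counts in siDnmt1 and 9532 in scrambled, 1.22-fold higher (1.19 to 1.25). Rev1, which overlaps Eif5b on the other strand, shares 18.2% of its 50-base stretches, so its counts are uncertain. Eif5, for the protein that triggers GTP hydrolysis on eIF2, had 1689 in siDnmt1 and 1376 in scrambled, 1.23-fold higher (1.14 to 1.32). Eif5a, for the hypusine-bearing factor now known mostly from elongation, had 653 counts in siDnmt1 and 595 in scrambled with equality inside the interval, and Eif5a2 had 7 in siDnmt1 and 24 in scrambled and was not compared.

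Within the family the log2 ratio went with transcript length. Spearman's correlation across the 47 genes was 0.635, and across all 7270 genes compared that have a length it was 0.236. Genes are not independent replicates, and all points share the same 2 libraries. The 24 initiation factor genes of at most 3167 nt included 5 that were at least 2-fold lower, beside 25.3% of all genes of such length, and 18 of the 24 had a negative log2 ratio, with a median of -0.53. Of the 23 longer ones, 16 had a positive log2 ratio, the median was 0.29, and 2 were at least 2-fold higher, beside 14.3% of all genes of such length. Over all genes compared the medians on the same sides of this length were -0.29 for 2712 genes and 0.12 for 4558 genes. With the length trend removed, Eif2a was the only member at least 2-fold higher, and Eif2d and Eif4e1b were the only members at least 2-fold lower. That result rests on the longest annotated transcript of each gene, which need not be the form these embryos express. The part of transcript length in these differences was not tested beyond these values.

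**Figure D4:**
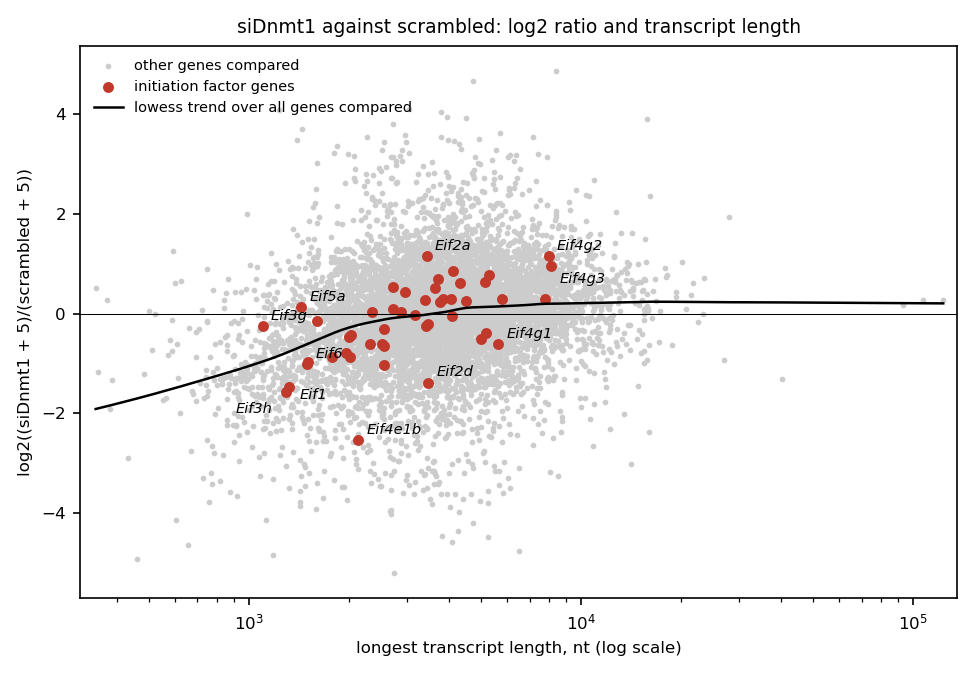
Log2 ratio of siDnmt1 over scrambled against the length of the longest annotated transcript in nt (log scale), for genes compared in grey and initiation factor genes in red, with the lowess trend over all genes as a black line. Eif1, Eif3h and Eif6 lie low at the short end and Eif4g2 and Eif4g3 high at the long end, while Eif4e1b and Eif2d lie below and Eif2a above the line at middle lengths.

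Other genes of translation were taken from lists by role, and 48 of the 65 in the table were compared. Of these, 10 were higher in siDnmt1 by 2-fold or more, beside 12.5% of all genes compared, and 4 were lower by as much, beside 16.7%. Their median log2 ratio was 0.34. Of 6 genes compared that act beside the initiation factors, 2 were higher by that much and 1 lower, beside the same shares of all genes. Abce1, a ribosome recycling factor, had 1852 counts in siDnmt1 and 766 in scrambled, 2.42-fold higher (2.22 to 2.63). Ddx3x, an RNA helicase that aids scanning, had 13154 counts in siDnmt1 and 5669 in scrambled, 2.32-fold higher (2.25 to 2.39). Denr, which works in the same recycling and reinitiation steps as Eif2d, had 279 counts in siDnmt1 and 571 in scrambled, 2.05-fold lower (1.77 to 2.37). Its log2 ratio of -1.02 came inside 2-fold at equal totals without Rn45s (-0.93), with a pseudocount of 20 (-0.98) and at a median log2 ratio of 0 (-0.9955). Its partner gene Mcts1 had 1 count in siDnmt1 and 0 in scrambled.

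Control of eIF2 alpha and of the cap complex was read from 2 further lists. Ppp1r15b, the constant partner of the phosphatase that reverses eIF2 alpha phosphorylation, had 867 counts in siDnmt1 and 361 in scrambled, 2.40-fold higher (2.12 to 2.72). Ppp1cc, a catalytic subunit of that phosphatase, had 422 counts in siDnmt1 and 178 in scrambled, 2.37-fold higher (1.99 to 2.84). These were 2 of the 7 genes compared in that list, beside 12.5% of all genes compared that were higher by as much. The other 5 lay within 2-fold below 0. Among them was Atf4, the transcription factor translated under eIF2 alpha phosphorylation, with 662 counts in siDnmt1 and 839 in scrambled. Of 12 genes of mTORC1 and the eIF4E kinases none was 2-fold apart on the log2 scale with 5 added, beside 29.1% of all genes compared. On that scale the 12 ranged from -0.57 to 0.94. As a plain ratio of counts Rps6kb2, for an S6 kinase, was 2.14-fold higher (1.102 to 4.37), at 30 counts in siDnmt1 and 14 in scrambled. It passed the limit of a mean of 20 only through the siDnmt1 library. Larp1, for an mRNA-binding protein under mTORC1, was at 0.94 and reached 1.04 at equal totals without Rn45s.

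Genes of poly(A) tail control and of the later steps of translation included wider gaps. Cpeb4 and Cpeb3 encode proteins that bind the cytoplasmic polyadenylation element. Cpeb4 had 97 counts in siDnmt1 and 32 in scrambled, 3.03-fold higher (2.01 to 4.67), and Cpeb3 had 296 in siDnmt1 and 134 in scrambled, 2.21-fold higher (1.80 to 2.73), though with the length trend removed Cpeb3 was inside 2-fold at a log2 ratio of 0.97. Paip2, an inhibitor of poly(A)-binding protein, had 612 counts in siDnmt1 and 1364 in scrambled, 2.23-fold lower (2.02 to 2.46). The log2 ratio of Paip2 (1569 nt) was -1.15, and -0.59 with that trend removed. Of the 8 genes compared in that list, 2 were higher by 2-fold or more and 1 was lower, beside 12.5% and 16.7% of all genes. The other 5 lay within 2-fold. Of 10 genes compared in the elongation list, 3 were higher by 2-fold or more and 2 were lower by as much, beside 12.5% and 16.7% of all genes. Eef2, the translocase gene, had 113825 counts in siDnmt1 and 51544 in scrambled, 2.21-fold higher (2.18 to 2.23), and Eef1a2 had 40 in siDnmt1 and 1 in scrambled, a ratio of 40.0 with an interval of 6.78 to 1619. With a mean of 20.5, Eef1a2 passed the limit of 20 only through the siDnmt1 library, so its place among the higher genes follows largely from that filter. Eef1e1, whose product belongs to the multi-synthetase complex, had 572 counts in siDnmt1 and 2506 in scrambled, 4.38-fold lower (4.00 to 4.81), and Eef1d had 108 in siDnmt1 and 244 in scrambled, 2.26-fold lower (1.79 to 2.86). All 5 termination and rescue genes compared had positive log2 ratios, while 49.2% of all genes compared had a log2 ratio of at least 0. Their median was 0.62, against -0.025 over all genes compared. Hbs1l was the only one at least 2-fold higher, at 665 counts in siDnmt1 and 103 in scrambled, beside 12.5% of all genes.

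**Figure D5:**
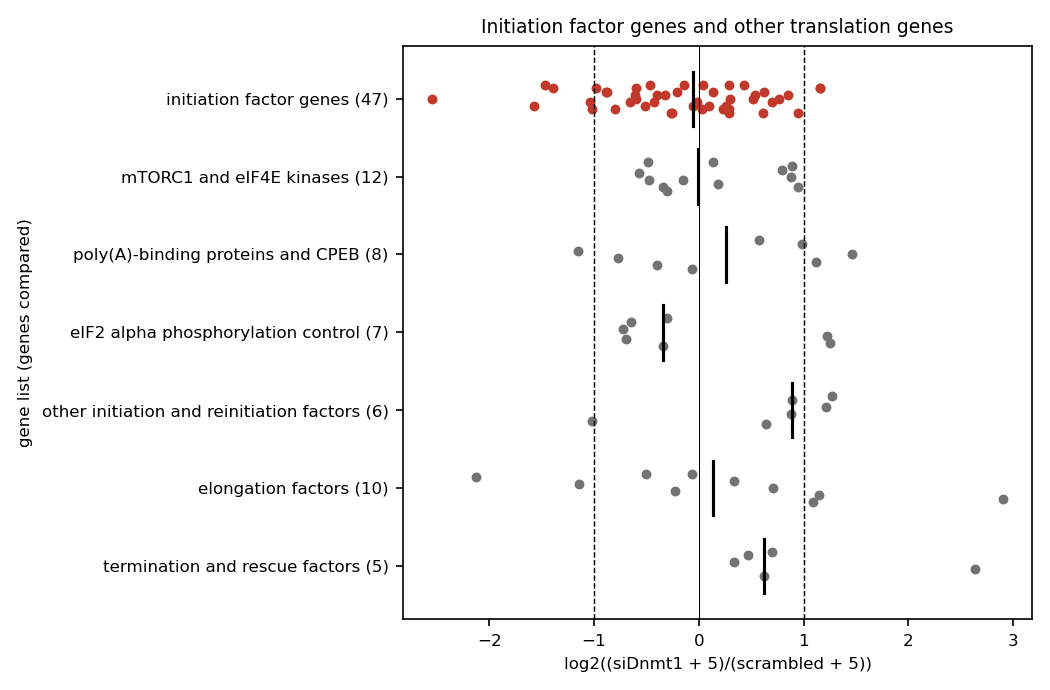
Log2 ratio of siDnmt1 over scrambled for each gene compared, in the initiation factor family (red) and in 6 lists of other translation genes (grey), with the number of genes compared in brackets. Black bars are medians and dashed lines mark 2-fold; the family's median is -0.055, and those of the lists run from -0.34 for eIF2 alpha phosphorylation control to 0.88 for other initiation and reinitiation factors.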

How the data were processed

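The 2 libraries were compared, each from 1 pool of embryos. Poly(A) RNA was isolated on beads, converted by pico-profiling (an amplification scheme for low inputs with 20 PCR cycles) and sequenced in paired-end mode, per the labels' protocols. Molecular identifiers are not mentioned there, so PCR copies count as molecules. Per the submitters' processing notes, Trim Galore, HISAT2, HTSeq, DESeq2 and mm9 were used. Gene models, strandedness and multi-mapping rules were not given in the sources used here. Per the labels, the deposited counts per gene are described as DESeq2-normalized. Their median-of-ratios size factor is 1 in both columns, and 0 whole numbers from 1 to 59 are skipped in either. A table already normalized also gives a factor of 1, and a slight scaling need not skip a whole number. These checks therefore cannot tell scaled from unscaled values. The values were treated as counts, and the counting intervals rest on that. Even values from 4 to 30 were more frequent than their odd neighbours, by a factor of 1.090 in siDnmt1 and 1.086 in scrambled. From 32 to 98 that factor was 0.948 in siDnmt1 and 1.035 in scrambled. The source of the excess at low values was not tested, and the intervals make no allowance for it.

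With 1 library per group no test was possible, and no p-values are reported. The log2 ratio is log2((siDnmt1 + 5)/(scrambled + 5)), which damps the ratios of low counts, and other folds are plain ratios of counts with Clopper-Pearson intervals. The comparison took genes averaging at least 20 counts. Transcript lengths are those of the longest GENCODE M21 transcript (GRCm38) of any type, coding or not, found for 99.4% of genes compared. They gave counts per kb and a lowess trend with a span of 0.3. The main mRNA of a gene can be shorter, so counts per kb and ratios with the length trend removed are uncertain. Shared sequence was measured as exact 50-base stretches of the longest transcript found in transcripts of other genes on either strand. Overlaps and shared sequence come from that annotation, not from mm9. Every member in the table is named. Of the other lists, genes at least 2-fold apart are named, up to the 2 highest and 2 lowest. The exceptions are Atf4, Mcts1, Pou5f1, Ptprc, Dppa3, Zp3, Tfap2c, Rps6kb2, Larp1 and the 6 genes related to Eif1a, chosen after their values were seen. Members and lists were chosen with earlier results of these data known. The size rule and the intervals were run on simulated Poisson counts. Those hold no PCR copies and no differences between pools, so the run checks the calculation and not its fit to these libraries. Tools were edgeR 4.0.16 in R 4.3.3 (TMM factors alone), and scipy 1.17.1, statsmodels 0.14.6, pandas 2.3.3, matplotlib 3.10.9 and numpy 2.4.6 in Python 3.11.15.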

Additional observations from a re-analysis of the deposited data

How the results depend on the processing

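No paired analysis was possible because each group had 1 library, and for the same reason no library could be left out. Among the 47 genes, the counts of 2 genes higher and 6 genes lower by 2-fold or more changed by at most 1.5 times with pseudocounts of 1 or 20 and with the 4 other scalings, under which they ran from 2 to 3 and from 4 to 7. TMM factors of edgeR gave 2 and 6, beside 12.7% and 16.3% of all genes compared. Removal of the length trend left 1 and 2 and a median log2 ratio of 0.089, since 5 genes came inside 2-fold. A mean of at least 100 counts left 42 genes, with 2 higher and 3 lower, beside 9.33% and 11.4% of all genes at that limit. With no filter on low counts 2 of 51 genes were higher and 9 lower, beside 12.4% and 15.6% of all genes. The median was then -0.20, beside 0 over all genes. A 1.5-fold limit gave 8 and 14, beside 24.7% and 28% of all genes compared, and a 4-fold limit gave 0 and 1, beside 2.64% and 4.51%. Eif1ad (-0.94) and Eif6 (-0.93) fell inside 2-fold when totals were made equal without Rn45s, and Eif1ad (-0.99) with a pseudocount of 20 and Eif6 (-0.998) with a median of 0 lay at the limit. No gene past 2-fold changed its sign under any of these settings. Of the other genes of translation named, Denr came inside 2-fold in 3 settings, Paip2 and Cpeb3 with the length trend removed, and Larp1 passed 2-fold without Rn45s and Rps6kb2 with a pseudocount of 1 (1.05). Counts under 20, as for Eif1, Eif4e1b and Eif5a2 in siDnmt1, limit the precision of those ratios.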

Other observations

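Mouse chromosome 12 carries a cluster of genes related to Eif1a that are known from the 2-cell stage, and 6 of them were looked up by name. None reached a mean of 20 counts. Together they had 18 counts in siDnmt1 and 92 in scrambled. Gm2016 had 1 count in siDnmt1 and 32 in scrambled, 32-fold lower with a wide interval (5.34 to 1303). Gm5662 had 2 in siDnmt1 and 25 in scrambled, Gm8300 10 in siDnmt1 and 29 in scrambled, Gm2022 3 in siDnmt1 and 6 in scrambled and BB287469 2 in siDnmt1 and 0 in scrambled, and Gm4027 had 0 in both libraries. Eif1a itself was level at 375 counts in siDnmt1 and 367 in scrambled. How much sequence these 6 genes share was not measured here, and reads of related genes can be assigned to a wrong copy or discarded.

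Shared sequence touched a good part of the initiation factor family. Of the 47 genes compared, 11 shared more than 10% of their 50-base stretches with other annotated genes and 16 shared none. The 11 were Eif1, Eif1ad, Eif2ak1, Eif2s3x, Eif3d, Eif3h, Eif3m, Eif4a1, Eif4a2, Eif4a3 and Eif5b, and the counts of all of them are uncertain. Among them Eif4a3 shared 24.4%, Eif3m 15.2% and Eif4a2 12.7%. Exons of 11 of the 47 overlapped those of a gene on the other strand.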
